A study of Homo sapiens with 4 samples.

Results

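The regions described here lay at 6 genes of crotonylation in T98G, a cell line grown out of a human glioblastoma. They were GCDH, ACSS2, ACADS and ACOX3, enzymes that form crotonyl-CoA, and KAT8 and CREBBP, acetyltransferases that can also act as crotonyltransferases. Every region that the deposited table assigns to 1 of these symbols was taken, which gave 6 regions, 1 per gene, of 29302 regions at 17169 gene symbols. All regions within 200 kb of the assigned transcript of each gene were added as local background, which gave 35 regions in all. The ChIP libraries came from T98G cells with the genotype LGP2 overexpressed, LGP2 being a helicase that senses viral RNA in the cytosol, and from T98G cells with the genotype VECTOR, with 1 ChIP library and 1 input library in each group. The treatment field names the overexpression for all 4 samples, the vector samples included, so the genotype was taken as the group, and the column names of the table carry the term pCW for both groups, which no source used here explains, and no selection of clones is stated. ChIP-seq counts reads of DNA fragments collected with an antibody. The vector pair is listed by the study among its data for pan-crotonyl-lysine, while for the LGP2 library no source used here names an antibody, so a difference in target between the libraries cannot be told apart from one in condition. With 1 library per group no test between the conditions was possible, each difference is one between libraries with no replicate check, and the intervals below cover counting error only.

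Lysine crotonylation is the transfer of a crotonyl group from crotonyl-CoA to lysine, on histones and on other proteins, and histone crotonylation is found at transcribed chromatin. The cell obtains crotonyl-CoA from the breakdown of lysine, from the oxidation of butyryl-CoA and from free crotonate. Acetyltransferases then use it as a donor, deacetylases of the HDAC and sirtuin families remove the mark, and proteins with YEATS or double PHD finger domains bind it. ChIP reads at these genes describe the chromatin of the genes, not the amount of the enzymes or of the modification.

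The depth was low. Reads were recovered from the deposited densities for a window inferred to be 2 kb per region, and the median region of the table had 5 reads over both libraries together. Regions were called in each library separately: 16076 (54.9%) with LGP2 only, 13147 (44.9%) with the vector only and 79 in both. DHX58, which encodes LGP2, had a single region that was called with the vector only, although 6 LGP2 reads and 3 vector reads fell there, and it gives no check of the overexpression. The table gives chromatin reads, and the cell type was not checked from it.

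At the 6 genes, 4 regions were called with LGP2 only (GCDH, ACSS2, KAT8 and CREBBP) and 2 with the vector only (ACADS and ACOX3). None was called in both libraries. Over all regions the shares were 54.9% with LGP2 only, 44.9% with the vector only and 0.27% in both. The 6 called intervals covered 1972 bp, while the reads are those of a window inferred to be 2 kb at each region. Summed over the 6 regions there were 20 LGP2 reads and 13 vector reads, or 3.33 and 2.17 reads per region. LGP2 reads made up 60.6% of these [95% Clopper-Pearson interval 42.1 to 77.1], against 48.9% over all regions of the table. The interval holds that value, but it pools the reads of 6 different regions and covers counting error only. The share also depends on the mix of calls, 4 with LGP2 and 2 with the vector. It therefore cannot show whether the 6 genes shifted as a group or not. A region enters the table through its reads in the calling library, so ratios lean to that library by selection.

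**Figure D1:**
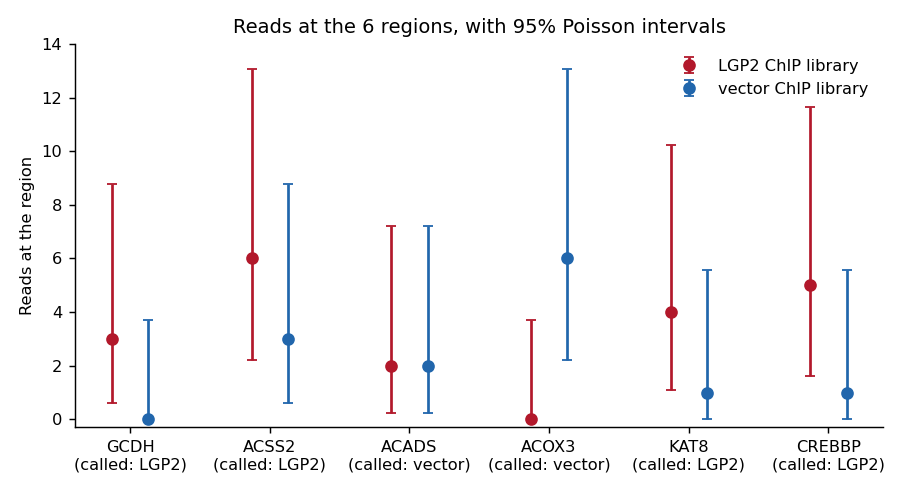
Reads at the region of each gene (y axis, number of reads) in the LGP2 and the vector ChIP library, with exact 95% Poisson intervals as bars. The 2 intervals of a gene overlap at all 6 genes, and ACOX3, with 0 LGP2 and 6 vector reads, has the smallest overlap.

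GCDH, the mitochondrial dehydrogenase that turns glutaryl-CoA into crotonyl-CoA in lysine breakdown, had 3 reads in the LGP2 library [95% Poisson interval 0.619 to 8.77] and 0 in the vector library [0 to 3.69]. The LGP2 library was the higher, but both counts lay at or under the floor of 3 reads that a count of 0 allows, so no fold is given. A count of 0 in the vector library was found at 21.7% of all LGP2-only regions. The region lay at chr19:12899821-12900142 in the coordinates of the file, read as GRCh38. The authors annotated it as promoter within 1 kb, 251 bp from the start of a short non-coding transcript of GCDH. By RefSeq this is the other end of the gene: the summit lay 8.85 kb past the RefSeq start and 17 bp from the RefSeq end. The region also overlapped SYCE2, a gene of the meiotic synaptonemal complex.

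ACSS2, the short-chain acyl-CoA synthetase that makes acetyl-CoA from acetate and crotonyl-CoA from crotonate, had 6 LGP2 reads [2.20 to 13.1] and 3 vector reads [0.619 to 8.77]. These were the most reads of the 6 regions, and 7.6% of all LGP2-only regions had 6 or more LGP2 reads. The ratio of reads was 2 [0.427 to 12.4] and the log2 ratio of the normalized densities was 0.98, just short of 2-fold. The region lay at chr20:34871692-34872228 and was the widest of the 6 at 537 bp. The authors annotated it as promoter within 1 kb, at a distance of 0 bp from a non-coding transcript of ACSS2. The RefSeq gene of ACSS2 begins 3.03 kb further on, and the region fell within GGT7, a gene of the gamma-glutamyltransferase family on the opposite strand. A window of 2 kb centred on the summit holds part of the RefSeq promoter of GGT7 and none of ACSS2, so these reads cannot be given to 1 of the 2 genes.

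ACADS, the mitochondrial short-chain acyl-CoA dehydrogenase that oxidizes butyryl-CoA to crotonyl-CoA in fatty acid oxidation, had 2 LGP2 reads [0.242 to 7.22] and 2 vector reads [0.242 to 7.22]. Both libraries had the same number of reads, although the region was called with the vector only. The table held other calls without an excess in the calling library: at 1059 vector-only regions (8.06%) the density was higher with LGP2. The region lay at chr12:120737302-120737583 in an exon, 11.6 kb from the RefSeq start and 2565 bp before the end of the gene.

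ACOX3, a peroxisomal acyl-CoA oxidase for branched-chain substrates that is also listed by the study as a source of crotonyl-CoA, had 0 LGP2 reads [0 to 3.69] and 6 vector reads [2.20 to 13.1]. Set against the floor of 3 reads, the 6 vector reads are 2-fold higher, before any correction for the depth of the libraries. Counting error allows a smaller drop with LGP2, since the interval of the ratio of reads runs up to 0.849. With 0 of 6 reads, the LGP2 share could be up to 45.9%. Among all vector-only regions, 3.22% had a log2 ratio at or below the -2.68 of ACOX3, and 11.7% had 6 or more vector reads. The region lay at chr4:8430573-8430874, annotated as promoter at 2-3 kb and 2088 bp upstream of the assigned transcript. That transcript begins inside the RefSeq gene, and the summit lay 10 kb past the first RefSeq start, within ACOX3.

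KAT8, the MYST-family acetyltransferase known for histone H4 lysine 16, had 4 LGP2 reads [1.09 to 10.2] and 1 vector read [0.0253 to 5.57]. The ratio of reads was 4 [0.396 to 197] and the log2 ratio of the densities was 1.46, a value reached or passed by 37.4% of all LGP2-only regions. The region lay at chr16:31126133-31126411, annotated as promoter within 1 kb and 550 bp past the start of a retained-intron transcript. By RefSeq it was inside the gene, at 62.7% of its length.

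CREBBP, the acetyltransferase CBP that CREB and many other transcription factors recruit, had 5 LGP2 reads [1.62 to 11.7] and 1 vector read [0.0253 to 5.57]. The ratio of reads was 5 [0.559 to 236] and the log2 ratio of the densities was 1.73, reached or passed by 23.7% of all LGP2-only regions. The region lay at chr16:3893558-3893807 in intergenic sequence, 12846 bp upstream of the start of the gene, and it was the narrowest of the 6 at 250 bp. It was also the only one of the 6 that overlapped no RefSeq gene.

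By the log2 ratio of the normalized densities, 3 of the 6 regions (GCDH, KAT8 and CREBBP) were at least 2-fold higher with LGP2, against 29.5% of all regions. These 3 were called with LGP2, and 54.7% of all LGP2-only regions reached or passed a log2 ratio of 0.98. ACOX3, called with the vector, was at least 2-fold lower with LGP2, against 25.2% of all regions. After centring on the median, 23.4% of all regions were 2-fold higher and 30.2% lower, and with the libraries scaled by their reads at regions of the other library 38.4% and 19.6%, while the counts for the 6 genes were 3 and 1 with centring and 4 and 1 with scaling. With 5 reads in place of 1 added to each library, 0 of the 6 regions stayed 2-fold higher, and ACOX3 stayed lower at -1.01. Over all regions, 3.26% were then 2-fold higher and 1.51% lower. The median log2 ratio of the 6 regions, 4 of them called with LGP2, was 1.22, beside 0.15 over all regions. GCDH enters these figures through its density alone, since its reads bound no fold, and without it the middle value is the 0.98 of ACSS2. Of the ratios of reads, only that of ACOX3 had an interval on 1 side of 1. This interval was not corrected for the number of regions or for depth. Nor was it corrected for the selection of the region through its vector reads.

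**Figure D2:**
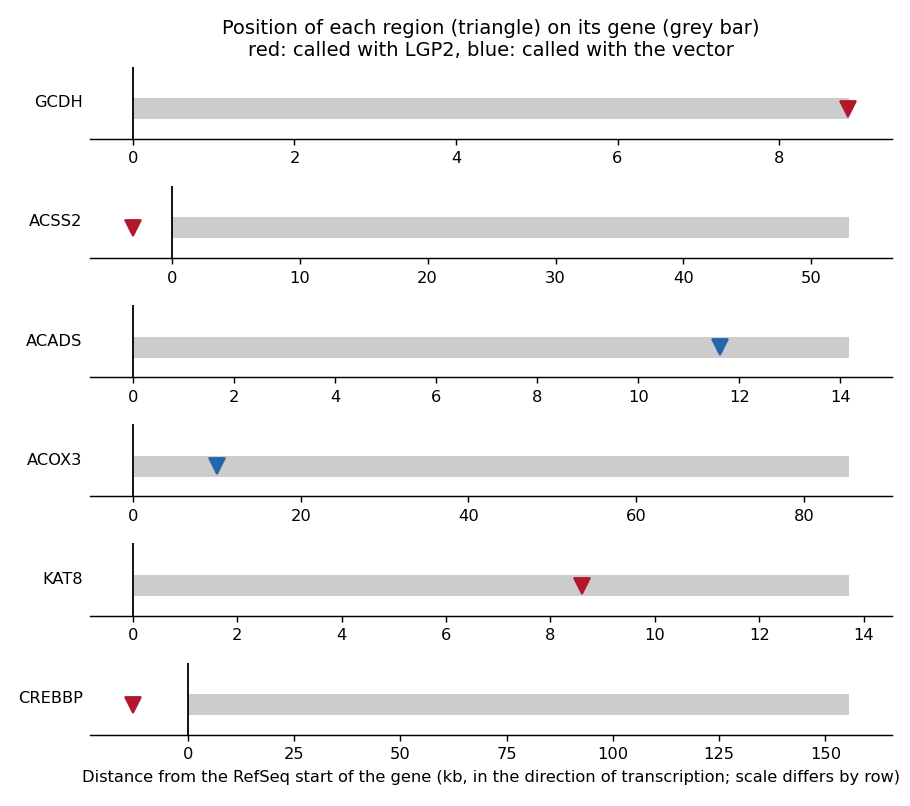
Position of each region (triangle, at its summit) on its RefSeq gene (grey bar), as distance in kb from the RefSeq start of the gene (black line), with a scale of its own in each row. Only ACSS2 and CREBBP have their region upstream of the gene, at 3.03 and 13 kb, and the region of GCDH sits at the far end of the gene.

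Although 4 of the 6 regions carried a promoter label, beside 20.1% of all regions, none of the 6 overlapped a RefSeq promoter window, taken as 250 bases before to 50 after a start. Promoter windows of RefSeq were found for 5 of the 6 genes (9 windows), and KAT8 was not matched. Over the whole table, 0.758% of the regions overlapped such a window, as did 2.91% of the regions with a promoter label. The nearest window of the own gene was 1875 bp away at ACOX3, 2511 bp at ACSS2, 8612 bp at GCDH, 11427 bp at ACADS and 12595 bp at CREBBP. The 3 promoters within 3 kb of a region are printed below to show which starts the reads could and could not reach. They are from RefSeq (GRCh38.p14), cover the 250 bases before the start, and run 5′ to 3′ on the strand of the gene, with CRE (TGACGTCA), GC box (GGGCGG) and CCAAT box (CCAAT) matches on either strand in capitals.
ACOX3, inner start, chr4:8428449-8428698, minus strand: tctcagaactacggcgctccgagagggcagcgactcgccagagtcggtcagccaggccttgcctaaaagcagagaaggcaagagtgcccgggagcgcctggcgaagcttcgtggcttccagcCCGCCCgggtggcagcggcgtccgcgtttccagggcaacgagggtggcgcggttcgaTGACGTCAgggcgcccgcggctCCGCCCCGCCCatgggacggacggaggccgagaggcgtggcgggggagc
GGT7, chr20:34872857-34873106, minus strand: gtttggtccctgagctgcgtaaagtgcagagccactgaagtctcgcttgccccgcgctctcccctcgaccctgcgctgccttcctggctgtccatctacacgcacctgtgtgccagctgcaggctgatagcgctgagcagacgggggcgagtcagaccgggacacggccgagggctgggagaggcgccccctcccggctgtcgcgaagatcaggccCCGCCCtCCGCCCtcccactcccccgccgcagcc
ACSS2, first start, chr20:34874739-34874988, plus strand: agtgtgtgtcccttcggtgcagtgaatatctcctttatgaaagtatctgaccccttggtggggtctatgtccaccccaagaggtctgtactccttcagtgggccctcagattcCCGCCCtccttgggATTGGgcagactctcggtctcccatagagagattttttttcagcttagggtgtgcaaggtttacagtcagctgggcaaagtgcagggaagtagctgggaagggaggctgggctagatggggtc
The inner promoter of ACOX3 held 31 CpG dinucleotides, 3 GC boxes, of which a pair shares 1 base, and 1 full CRE, the element that CREB binds. No match overlapped another motif in the 3 promoters. The GGT7 promoter held 21 CpG and 2 GC boxes, and the ACSS2 promoter held 3 CpG, 1 GC box and 1 CCAAT box, beside a median of 11 CpG over all 35116 promoters. Of all promoters, 1.65% held the CRE, 42.6% the GC box and 32% the CCAAT box. The regions of ACOX3 and ACSS2 lay outside these windows, so the matches describe the sequence nearby and not the sequence that was called.

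The read pairs of the 6 regions recurred in the table to different degrees. The pair of KAT8, 4 LGP2 reads and 1 vector read, was found at 1433 LGP2-only regions (8.91%), that of GCDH, 3 and 0, at 1272 (7.91%), that of CREBBP, 5 and 1, at 671 (4.17%), and that of ACSS2, 6 and 3, at 143 (0.89%). Among vector-only regions, the pair of ACADS, 2 and 2, was found at 343 (2.61%) and that of ACOX3, 0 and 6, at 295 (2.24%). Regions with the same calling library, annotation and reads numbered 144 besides KAT8, with ITIH4, a plasma protein of the liver, and P4HB, a protein disulfide isomerase, the nearest in width. They numbered 111 besides GCDH (nearest MTAPP2 and SALL3), 202 besides CREBBP (nearest AC025578.1 and KRT18P43), and 21 besides ACOX3 (nearest AL022722.1 and ARHGEF18). There were 21 besides ACSS2 (nearest ZNF223 and FECHP1) and 6 besides ACADS (nearest VPS13D and CDH6). Likeness here means equal reads in 2 libraries and nothing else.

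Around the genes, the balance of calls differed from locus to locus. Within 200 kb there were 4 to 8 regions per gene. In total 19 were called with LGP2 only and 16 with the vector only, or 54.3% with LGP2 [36.6 to 71.2], against 55% of the 1-library regions in the rest of the table. The median log2 ratio of these 35 regions was 0.13, beside 0.15 over all regions. Without the 6 regions of the genes themselves the counts were 15 and 14, and 5 of these 29 regions were at least 2-fold higher and 8 at least 2-fold lower with LGP2. A promoter label was carried by 51.7% of the 29 neighbours, and none of them overlapped a RefSeq promoter window either. At 5 of the 6 genes the calling library was also the one with more calls among the neighbours, and GCDH was the exception. The share of such matches over all regions was not computed, so this count has no background. At ACADS it rests on 2 vector calls and 1 LGP2 call, and at CREBBP on 3 LGP2 calls and 2 vector calls. Neighbours share their chromosome and the depth of the libraries, and what part these have in the balance was not tested.

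**Figure D3:**
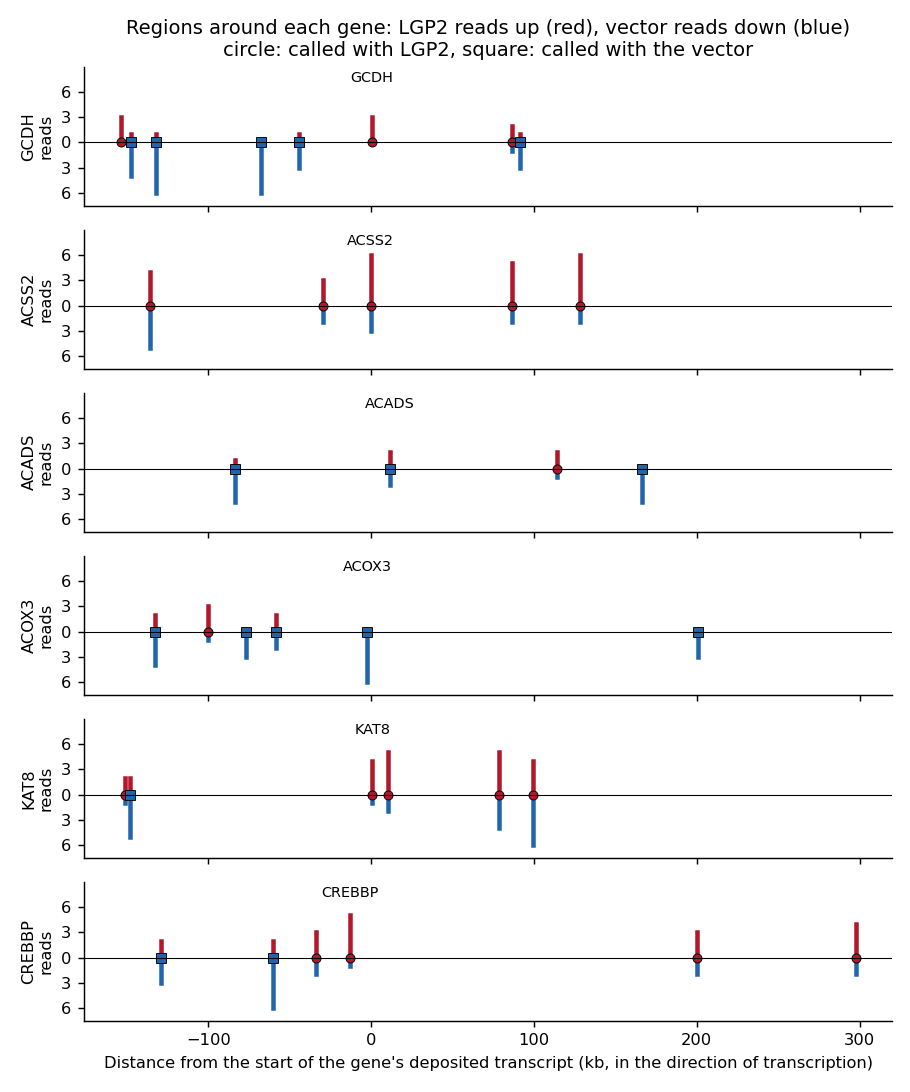
Regions within 200 kb of each gene, as distance in kb from the start of its deposited transcript, with LGP2 reads drawn upwards and vector reads downwards, and the calling library shown by the marker. All 5 regions at the ACSS2 locus were called with LGP2, and 5 of the 6 at the ACOX3 locus with the vector.

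At the ACSS2 locus all 5 regions were called with LGP2, and the 4 neighbours had 18 LGP2 reads and 11 vector reads, or 4.5 and 2.75 per region. The nearest neighbours were HMGB3P1, a pseudogene, with 3 LGP2 and 2 vector reads, and GSS, glutathione synthetase, with 5 and 2 reads. This gene lies on chromosome 20, where 76.8% of the other 1-library regions were called with LGP2 [73.6 to 79.7], and the interval of the locus [47.8 to 100] holds that share.

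At the ACOX3 locus 5 of 6 regions were called with the vector. The nearest neighbours were an intron region of the non-coding gene AC105345.1 at 55.6 kb, with 2 reads in each library, and SH3TC1 at 203 kb on the other side, with 0 LGP2 reads and 3 vector reads. The neighbours had 7 LGP2 reads and 13 vector reads in all. The LGP2-only share was 16.7% [0.421 to 64.1], against 45.5% [42.9 to 48.1] on the rest of chromosome 4.

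At the ACADS locus 1 of 4 regions was called with LGP2. AC125616.1, a non-coding gene 94.5 kb away, had 1 LGP2 read and 4 vector reads, and SPPL3, an intramembrane protease gene, had 2 and 1 reads at its nearer region. The 3 neighbours had 3 LGP2 reads and 9 vector reads, while the region of ACADS itself had 2 of each.

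The GCDH locus was the densest, with 8 regions or 19.9 per Mb, against 13.6 per Mb on chromosome 19. Its neighbours leaned to the vector, with 9 LGP2 reads and 23 vector reads over 7 regions, of which 2 were called with LGP2 and 5 with the vector. HOOK2, a gene for a microtubule-binding protein, had the most reads in the window, 1 LGP2 read and 6 vector reads. MIR6794, at 44.6 kb the nearest on 1 side, had 1 and 3 reads, and NFIX, a transcription factor gene at 86.1 kb on the other side, had 2 and 1. The region of GCDH, with 3 and 0 reads, thus stood among neighbours that were mostly vector calls, on a chromosome where 60.2% [56.7 to 63.7] of the remaining 1-library regions were called with LGP2.

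KAT8 and CREBBP lie far apart on chromosome 16, where 61.9% of the 1-library regions outside the KAT8 window were called with LGP2. At KAT8 5 of 6 regions were called with LGP2, but the 5 neighbours had 18 reads in each library. PRSS8, the serine protease prostasin, lay 9.25 kb from the KAT8 region and had 5 LGP2 reads and 2 vector reads. SETD1A, a histone H3 lysine 4 methyltransferase, had 2 and 5 reads at its nearer region, and PYDC1, a small pyrin-domain protein, had the most reads of the window with 4 and 6, although it was called with LGP2. At CREBBP 4 of 6 regions were called with LGP2, and the neighbours had 14 LGP2 reads and 15 vector reads. The non-coding gene LINC02861 had 3 and 2 reads at the region 20.8 kb from that of CREBBP, and 2 and 6 reads at a region called with the vector 47.2 kb away. TRAP1, a mitochondrial HSP90 chaperone, had 3 and 2 reads on the far side of the gene.

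**Figure D4:**
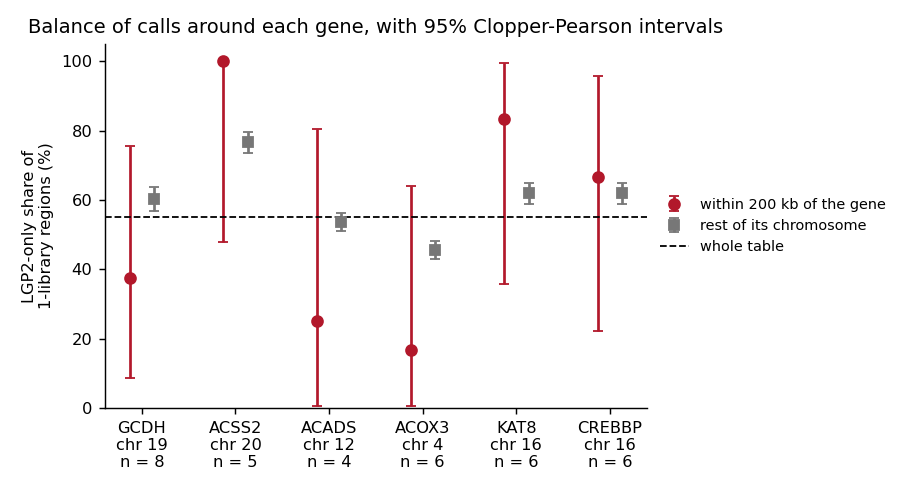
Share of 1-library regions called with LGP2 (y axis, percent) within 200 kb of each gene and on the rest of its chromosome, with exact 95% Clopper-Pearson intervals, and the share in the whole table (dashed line, 55%). The interval of every locus is wide and, at all 6 loci, holds the value of the rest of the chromosome.

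Other genes of crotonylation named by the study filled out the picture. Of 18 such genes, 9 had a region (50%), against 34.8% of 20056 coding genes in RefSeq. Without the 6 genes, all of which have a region, 3 of the other 12 had one (25%). All 4 crotonyltransferases had 1 region each, and all 4 regions were called with LGP2, against 54.9% of all regions. Besides KAT8 and CREBBP these were EP300, the paralog of CREBBP, where 4 LGP2 reads [1.09 to 10.2] stood beside 3 vector reads [0.619 to 8.77], and KAT2B, also called PCAF, with 2 [0.242 to 7.22] and 1 [0.0253 to 5.57]. The EP300 region was annotated as promoter within 1 kb at chr22:41145470-41145896, and the KAT2B region as intron at chr3:20097555-20097867. The median log2 ratio of the 4 regions was 1.08, beside 0.15 over all regions, and 2 of them, those of KAT8 and CREBBP, were at least 2-fold higher with LGP2, against 29.5% of all regions. All 4 were called with LGP2, so a lean to LGP2 follows from the call, while all regions include the vector calls. Among LGP2-only regions, 54.7% reached or passed the 0.98 of ACSS2 and 37.4% the 1.46 of KAT8. The regions of EP300 and KAT2B alone had a median of 0.59, and 0 of these 2 were past 2-fold. In every one of the 4 the Poisson intervals of the libraries overlapped.

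The decrotonylases HDAC1, HDAC2, HDAC3, SIRT1, SIRT2 and SIRT3 had 0 regions among 6 genes, against 34.8% of coding genes with a region. Of the readers, YEATS2, a YEATS-domain subunit of the ATAC complex, had 2 regions, both called with LGP2, with 3 LGP2 reads and 1 vector read in an intron and 2 reads in each library at a promoter-annotated region. DPF2 and MLLT3 had no region. Among the enzymes, ECHS1, which hydrates crotonyl-CoA, had none. These counts are of the table used here, which lists called regions only, so a gene without a region may still have reads.

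**Figure D5:**
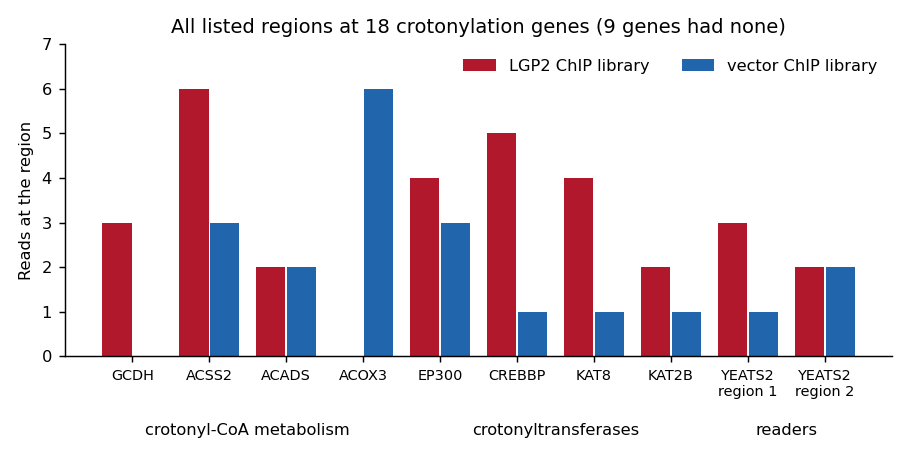
Reads in the LGP2 and the vector ChIP library (y axis) at all 10 regions of the 18 crotonylation genes, grouped by role. All 4 crotonyltransferases, each called with LGP2, have more LGP2 than vector reads, by 1 to 4 reads. The crotonyl-CoA enzymes, 2 called with LGP2 and 2 with the vector, point to either library. Reads lean to the calling library by selection, and 6.78% of all LGP2-only regions had a density ratio in the other direction.

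Regions of related pathways were called in either library. Of 10 genes of lysine degradation, the pathway that leads to GCDH, 6 had regions (60%), against 34.8% of coding genes. Of their 8 regions, 4 were called with LGP2 and 4 with the vector. DLD, a subunit of several dehydrogenase complexes, had 6 LGP2 reads and 3 vector reads, and SUGCT, a glutarate CoA-transferase, had 5 and 2. OGDH, of the 2-oxoglutarate dehydrogenase complex, had 0 and 6 reads at a promoter-annotated region and 2 and 1 in an intron, and DHTKD1, which forms glutaryl-CoA, had 2 and 4. Of 6 further genes that make acetyl-CoA or other short-chain or medium-chain acyl-CoAs, 4 had regions (66.7%), against 34.8% of coding genes, with 8 regions in all. Of these 1 was called with LGP2 and 7 with the vector, against 54.9% and 44.9% of all regions, and their median log2 ratio was -1.13, beside 0.15 over all regions. With 7 vector calls among the 8, this median leans to the vector by selection and adds nothing to the count of calls. ACLY, the ATP citrate lyase, had 3 of these regions, and its best covered one had 2 LGP2 reads and 6 vector reads. ACSM1, a medium-chain synthetase, also had 3, with 1 and 5 reads at a region called with the vector, and ACSS3 had 2 and 3 reads. ACSS1, the mitochondrial relative of ACSS2, had 0 LGP2 reads and 4 vector reads in an intron. It lies on chromosome 20 like ACSS2, whose region was called with LGP2. Of the 8 regions 5 were at least 2-fold lower with LGP2, beside the 25.2% of all regions, a count that leans to the vector in the same way. ACLY and ACSM1 together held 6 of the 8.

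Of 11 other acyl-CoA dehydrogenases and oxidases, relatives of ACADS and ACOX3, 2 had a region (18.2%), against 34.8% of coding genes. They were ACADM, with 3 LGP2 reads and 1 vector read, and ACOXL, with 2 and 3. The region of ACADM lay outside its RefSeq gene. Among 7 further genes tied to acylation, KAT5, which encodes TIP60, was called with LGP2 although it had 2 LGP2 reads and 6 vector reads. CDYL is a chromodomain protein that can hydrate crotonyl-CoA, and its better covered region had 4 LGP2 reads and 2 vector reads. KAT6B, an acetyltransferase of the MYST family like KAT8, had 4 regions, of which 3 were called with LGP2 and 1 with the vector, and YEATS4 had 1 LGP2 read and 2 vector reads. The 8 regions of these 7 genes held 17 reads in each library.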

How the data were processed

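T98G cells were profiled by ChIP-seq, with 1 ChIP and 1 input library per group (4 samples). The authors deposited 1 table of regions, with a normalized read density per ChIP library as a signal value, a nearest gene and an annotation. No source used here names the aligner, the caller or its threshold. The labels name the build mm10, but 99.2% of 9893 coding transcripts overlapped the RefSeq gene of the same symbol in GRCh38.p14, as did all 6 genes described here, so positions were read as GRCh38. The table's columns of log2 ratio, mean level and p-value, the authors' own comparison, were not used. The 2 input libraries had no columns and were not analysed here.

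Log2 ratios (LGP2 over vector) were computed from the densities. Reads were recovered in 100% of regions as whole numbers (tolerance 0.001), with 1 read added and after a straight line in the mean level (intercept -0.10, slope -0.05). Its 2-kb window follows from the scale of the densities. Recovery was tested on simulated data made with the same window, added read and form of line. That test checks the solving step and not these settings. The total depth of the libraries is unknown. No source names molecular identifiers, so reads are not independent molecules. Intervals were exact (SciPy 1.17.1, Python 3.11.15), at 95%, and the floor for a count of 0 was 3 reads.

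The 6 genes and the gene lists were chosen with earlier results of these data known. A gene of the study's list is not reported here and was left out of the list counts. All 6 genes were named, with the nearest region on either side and the region with most reads in each window, every crotonylation gene with a region, and, in each other list, the 4 genes whose best covered single region had the most reads. GGT7 and SYCE2, which overlap a region, were named after the positions were seen. Alternatives were other numbers of added reads, scalings, folds, read minimums and windows.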

Additional observations from a re-analysis of the deposited data

How the results depend on the processing

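With 5 reads added to each library in place of 1, 0 of the 6 regions were at least 2-fold higher with LGP2, in place of 3, beside 3.26% of all regions. The log2 ratio of GCDH was then 0.78, that of KAT8 0.72 and that of CREBBP 0.88. ACOX3 stayed at least 2-fold lower under every number of added reads and every scaling tried. ACSS2 passed 2-fold with 0.5 reads added (1.06) and when the libraries were scaled by their mean reads at regions that only the other library called (1.29), which gave 4 regions. That scaling moved the median of all regions by 0.35 on the log2 scale, no normalization moved it by -0.13 and centring by -0.15, and no region of the 6 past 2-fold changed its direction. ACADS, at 0.13, was at -0.02 after centring. With at least 5 reads in the calling library, 2 LGP2-only regions and 1 vector-only region were left. With at least 4 reads, 3 LGP2-only regions and 1 vector-only region were left. Counting only regions that overlap the deposited transcript left 3 LGP2-only regions and 1 vector-only region. Counting those that overlap the RefSeq gene, chosen after the data were seen, left 2 LGP2-only and 2 vector-only regions. The share of calls with LGP2 around the genes ranged between 46.7% without the ACSS2 locus and 62.1% without the ACOX3 locus. Every alternative lay within the interval of 36.6 to 71.2. That interval is wide and the alternatives share regions with it, so this is no check of the share. No paired analysis was possible because each group held 1 ChIP library. For the same reason no replicate could be left out. Depth limits every value, since the 6 regions had 3 to 9 reads over both libraries together.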
